A study of Drosophila melanogaster with 6 samples.

Results

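The comparison described here sets wing imaginal discs with a control hairpin against discs with no hairpin, across all genes on the array. It takes 4 of the 6 arrays of a Drosophila melanogaster study of the gene lid, namely the 2 arrays titled as GFP RNAi and the 2 titled as wild type. Discs of the GFP RNAi group came from w1118 larvae in which the act5Cgal4 driver expresses a hairpin against GFP from a NIG-FLY strain. The wild type group is labelled w1118 with RNAi given as none, although its genetic background field also lists the driver. The other 2 arrays, titled LID RNAi, carry a hairpin against lid under the same driver in a lidk06801 background, and entered only the estimate of spread and some levels given for orientation. All larvae were grown at 25 °C and taken as wall climbers at the third instar, and 30 discs were pooled for each sample. The labels do not say whether the 2 samples of a group were separate dissections, so p-values measure only the spread between these samples. The hairpin, the driver, should wild type lack it, and any other difference between the stocks cannot be told apart.

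GAL4 is a yeast transcription factor that activates any transgene placed behind its binding sites, and act5C is a promoter active in nearly all cells. A long hairpin made this way is cut by Dicer-2 into short interfering RNAs, which AGO2 uses to destroy matching transcripts. GFP is a jellyfish protein that the fly genome does not encode, so a hairpin against it serves as a control for the RNAi machinery and the driver. The wing disc is a larval sac of epithelium with attached muscle precursors and tracheal tissue that forms the adult wing and the back of the thorax.

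Levels are log2 values per probe set, on which a step of 1 is a doubling. The median over all probe sets was 6.35 and 6.39 in GFP RNAi discs, against 6.43 and 6.38 in wild type discs. Replicates correlated across probe sets at r = 0.995 in each of the 2 groups, and arrays of different groups at 0.989 to 0.992, where probe sets are not independent replicates. All 9 measured markers that define wing disc tissue stood above background on each of the 4 arrays, for example vg, the selector gene of the wing, at 12.97 and 13.00 in GFP RNAi discs, against 12.94 and 13.05 in wild type discs. The 7 measured Y-linked genes, which are fertility genes of the male germline, were within background on these arrays. The gap between the 3′ and the 5′ end of control transcripts, a sign of RNA quality, was wider in GFP RNAi for each of 4 control pairs, at 2.58 and 2.65 for one GAPDH pair, against 2.39 and 2.39 in wild type. Its part in the differences below was not tested. Kdm5, the current name of lid, read 10.32 and 10.45 in GFP RNAi discs, 8.36 and 8.04 in LID RNAi discs and 10.42 and 10.33 in wild type discs, and it did not pass between GFP RNAi and wild type (limma adjusted p = 0.987).

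The 2 arrays of a group also disagreed in places. Hr3, a nuclear receptor gene of the ecdysone response that times moulting, read 10.52 and 6.51 in GFP RNAi discs, against 10.14 and 10.62 in wild type discs. The related receptor gene Hr4 read 10.50 and 7.75 in GFP RNAi discs, against 10.74 and 11.09 in wild type discs. The ebony gene e, whose enzyme makes pale cuticle precursors, read 9.22 and 5.10 in GFP RNAi discs, against 8.78 and 8.26 in wild type discs. In each case GFP RNAi replicate 2 was the low array. Digestive protease genes of the gut stood high on wild type replicate 1, with Jon65Aiii at 7.52 and 7.95 in GFP RNAi discs, against 11.73 and 9.11 in wild type discs, and epsilonTry at 6.40 and 7.23 in GFP RNAi discs, against 10.62 and 6.66 in wild type discs. No gene of these 5 passed the test (limma adjusted p between 0.509 and 0.811).

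Of 18769 probe sets, 82 rose and 80 fell in GFP RNAi at an adjusted p under 0.05 in limma, which is 0.863% of those tested (0.437% higher and 0.426% lower). They stand for 68 genes that rose and 58 that fell, counting a gene if any of its probe sets passed, or 1.05% of 11982 named genes. With the brightest probe set alone standing for a gene, 64 rose (0.534%) and 56 fell (0.467%). At an unadjusted p under 0.05 the number was 2131. The 2 GFP RNAi arrays lay on one side of both wild type arrays for all 162, but this also held for 45.6% of all probe sets. Of the 162, 132 differed at least 2-fold and 53 at least 4-fold, 27 of them higher and 26 lower. Fits that left out 1 array made fewer calls. The number was 4 when either GFP RNAi array was left out and 90 when either LID RNAi array was. It was 17 in the fit lacking the first wild type array and 16 in the fit lacking the second. The genes CG30356, t, CG13032 and Ir76a passed in each of these fits.

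**Figure D1:**
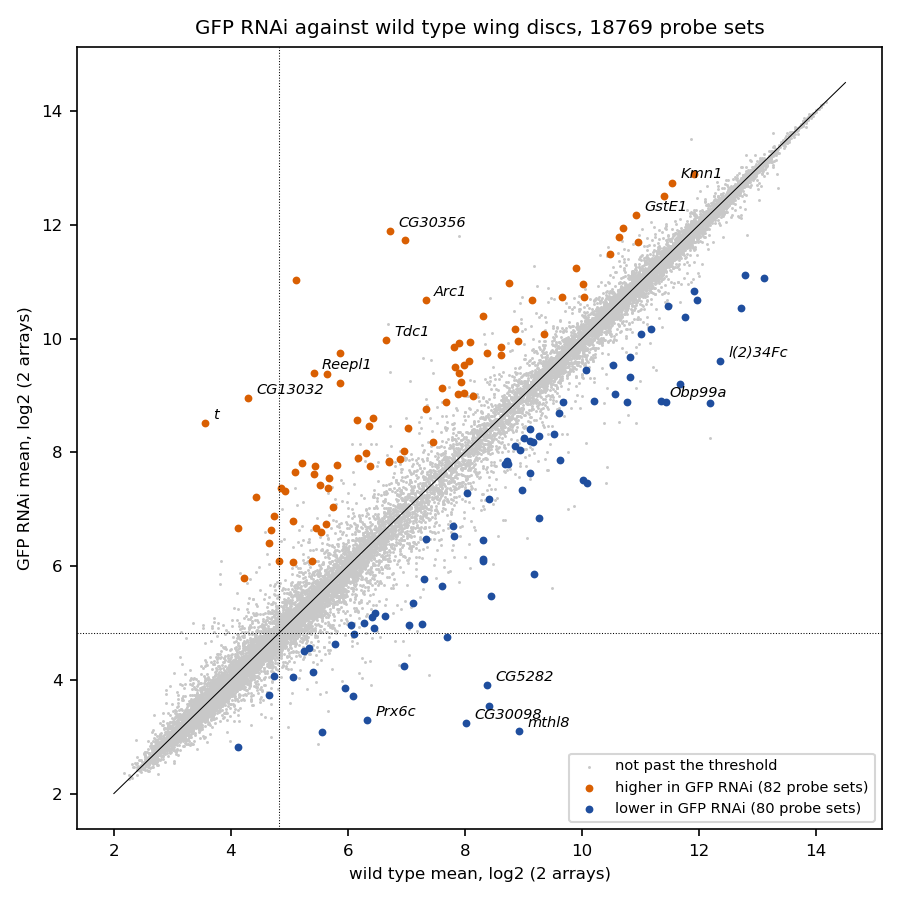
Mean log2 level of each of 18769 probe sets in GFP RNAi (vertical) and wild type (horizontal), 2 arrays each. The 82 probe sets that rose (orange) and the 80 that fell (blue) lie off the diagonal, and the dotted lines mark the background limit of 4.82.

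The largest rises gave a high level in GFP RNAi, against a low or background level in wild type. CG30356, a gene without a described role in the files, read 11.86 and 11.92 in GFP RNAi discs, against 6.69 and 6.76 in wild type discs, a difference of 5.16 ± 0.07 (SE, n = 2 arrays per group, as throughout, limma adjusted p = 0.000393). The gene t encodes the tan hydrolase, which recycles dopamine and histamine from their beta-alanine conjugates in cuticle and eye. It read 8.34 and 8.69 in GFP RNAi discs, against 3.43 and 3.68, within background, in wild type discs, which is at least 13.0-fold higher against the background limit. CG13032 read 9.01 and 8.88 in GFP RNAi discs, against 4.40 and 4.19 in wild type discs, at least 17.5-fold higher on the same reckoning. Reepl1, of a family that shapes the endoplasmic reticulum, read 9.41 and 9.36 in GFP RNAi discs, against 5.30 and 5.53 in wild type discs. CG17778 read 9.81 and 9.69 in GFP RNAi discs, against 6.22 and 5.50 in wild type discs. For each of these genes no GFP RNAi array came near a wild type array. The LID RNAi arrays, which share the driver, read 12.13 and 12.14 for CG30356, 9.56 and 9.54 for t, 9.16 and 9.23 for CG13032 and 9.77 and 9.51 for Reepl1. Both LID RNAi arrays lay above both GFP RNAi arrays for these genes, by the widest margin for t, and far above wild type.

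Other large rises set the GFP RNAi arrays apart from both other groups. The ionotropic receptor gene Ir76a, of a family of chemical sensors related to glutamate receptors, read 9.48 and 9.28 in GFP RNAi discs, 5.58 and 5.52 in LID RNAi discs and 5.66 and 5.62 in wild type discs (3.74 ± 0.09 against wild type, adjusted p = 0.00215). Tdc1 encodes a tyrosine decarboxylase that makes tyramine, the precursor of octopamine. It read 9.72 and 10.22 in GFP RNAi discs, 7.60 and 7.94 in LID RNAi discs and 6.88 and 6.44 in wild type discs, a rise of 3.31 ± 0.25 or 9.93-fold (adjusted p = 0.0205). CG32055 read 9.30 and 9.12 in GFP RNAi discs, 6.88 and 5.93 in LID RNAi discs and 5.65 and 6.08 in wild type discs. The inebriated gene ine, which encodes a member of the neurotransmitter transporter family, read 7.57 and 7.53 in GFP RNAi discs, 5.54 and 5.09 in LID RNAi discs and 5.67 and 5.69 in wild type discs. Acp62F, known as a protease inhibitor of seminal fluid, read 7.49 and 8.03 in GFP RNAi discs, 5.68 and 5.64 in LID RNAi discs and 5.63 and 5.25 in wild type discs. CG31676, CG14695 and CG3860 rose by 2.41, 2.20 and 2.05 against wild type, with LID RNAi means that were also nearer to wild type than to GFP RNAi. LID RNAi differs from GFP RNAi in more than the hairpin, so these levels do not separate the hairpin from the stock.

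Several rises concern genes with known roles in cell signalling and housekeeping. Damm, a caspase gene, read 7.33 and 7.42 in GFP RNAi discs, against 5.18 and 4.52 in wild type discs, where the arrays straddle the background limit (2.52 ± 0.26, adjusted p = 0.0384). It was the 1 member of 17 measured apoptosis and p53 genes to pass, or 5.88%, beside 1.05% of all genes. This list and those below were chosen with earlier results of these data known, so their shares are descriptive and were not tested. The zinc finger gene dati read 7.88 and 7.44 in GFP RNAi discs, against 5.08 and 5.11 in wild type discs. A second probe set of dati stood within background in both groups. The gene sktl encodes a kinase that makes the membrane lipid PIP2, and it read 9.87 and 9.95 in GFP RNAi discs, against 7.86 and 7.93 in wild type discs (2.02 ± 0.09, adjusted p = 0.00666). Fbxl4, an F-box gene, rose by 1.84, the aldehyde oxidase gene AOX1 by 1.71 and Marf1, a regulator of mRNA stability in oocytes, by 1.67. A second probe set of Marf1, at a lower level, differed by 0.06 ± 0.13 and did not pass. The gene tut, whose protein works with Bam in germ cells, rose by 1.54 at a high level, with 10.66 and 10.71 in GFP RNAi discs, against 9.10 and 9.18 in wild type discs. The palmitoyl thioesterase gene Ppt1 rose by 1.34, the Golgi matrix gene GM130 by 1.24, the ubiquitin ligase gene sina by 1.23, the RNA helicase gene Mov10 by 1.15, the transporter gene MFS15 by 1.10, plum, of the immunoglobulin superfamily, by 1.01 and Yip1d1, of a Golgi membrane family, by 0.94. The smallest rise among named genes was that of the splicing factor gene ncm at 0.69 ± 0.07 (adjusted p = 0.0419).

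**Figure D2:**
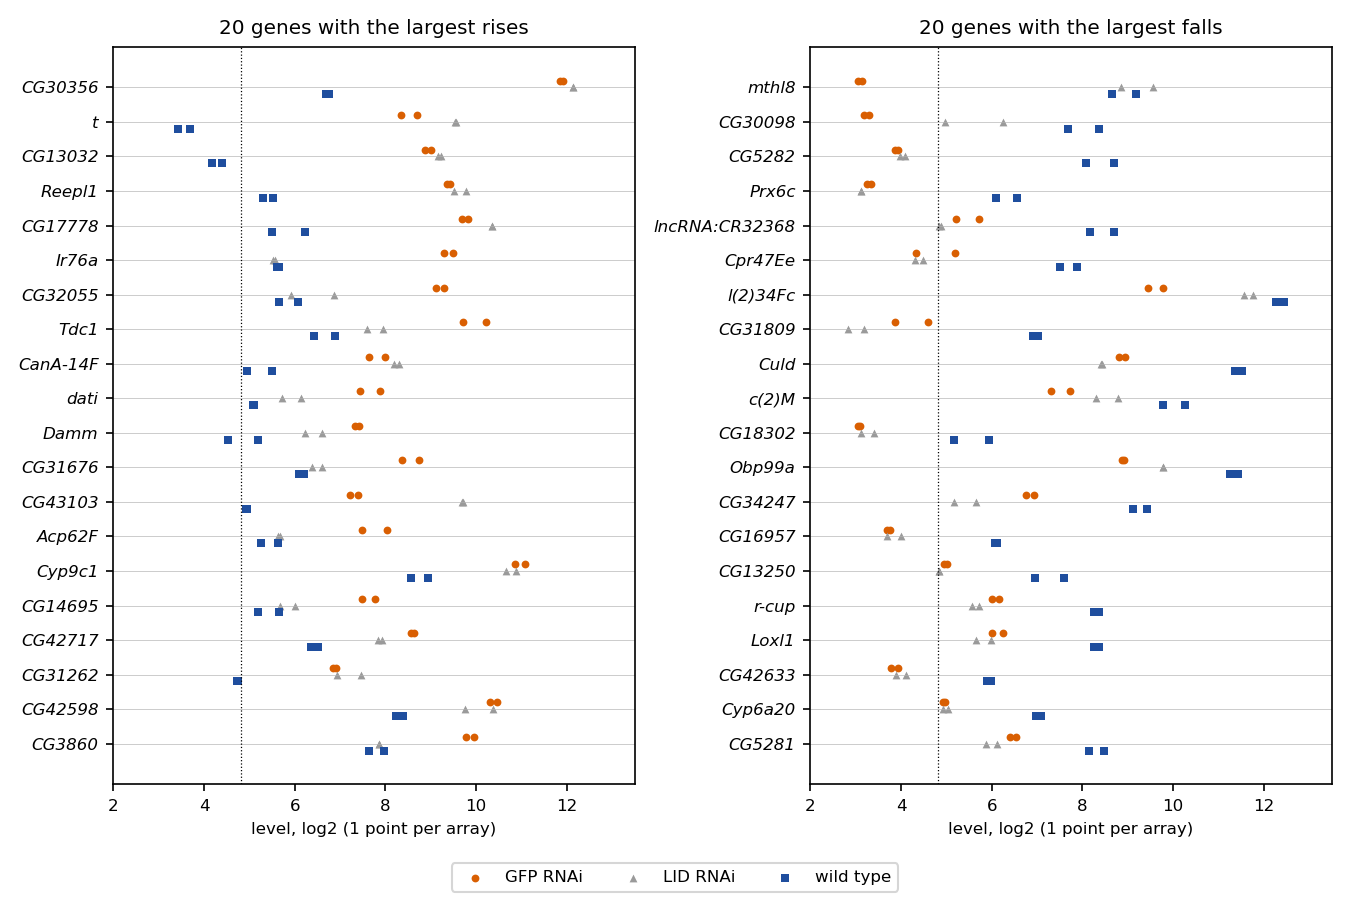
Levels on every array for the 20 genes with the largest rises and the 20 with the largest falls in GFP RNAi, one gene per row. Only genes whose brightest probe set passed are drawn, so Arc1 and trol are absent. GFP RNAi (orange circles) never overlaps wild type (blue squares), LID RNAi (grey triangles) lies near GFP RNAi for CG30356 and near wild type for Ir76a, and the dotted line is the background limit of 4.82.

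Among falls mthl8 came first. It belongs to the methuselah-like G protein-coupled receptors. Its probe set with the higher level read 3.13 and 3.05 in GFP RNAi discs, 9.57 and 8.85 in LID RNAi discs and 8.66 and 9.18 in wild type discs, at least 17.1-fold lower than wild type (adjusted p = 0.00827). Only the GFP RNAi arrays lacked a signal above background. A second probe set of mthl8 gave 3.42 and 3.66 in GFP RNAi discs, against 8.24 and 8.58 in wild type discs. CG30098 read 3.19 and 3.29 in GFP RNAi discs, against 8.37 and 7.67 in wild type discs, and CG5282 read 3.94 and 3.86 in GFP RNAi discs, against 8.68 and 8.08 in wild type discs. With Cpr47Ee, CG31809, CG31262, t and CG13032 these make 8 genes whose mean was within background in one group and at least 2 log2 units above that limit in the other, 5 of them within background in GFP RNAi and 3 in wild type. For Cpr47Ee the GFP RNAi arrays straddle the limit.

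Other falls took highly expressed transcripts to a lower level. The gene l(2)34Fc read 9.44 and 9.76 in GFP RNAi discs, against 12.27 and 12.44 in wild type discs. Culd, which encodes a membrane protein with CUB and LDLa domains, read 8.81 and 8.94 in GFP RNAi discs, 8.42 and 8.40 in LID RNAi discs and 11.51 and 11.35 in wild type discs (-2.56 ± 0.09, adjusted p = 0.0035). The gene c(2)M, known for its part in the synaptonemal complex of meiotic chromosomes, read 7.72 and 7.30 in GFP RNAi discs, against 9.77 and 10.25 in wild type discs. Loxl1, a lysyl oxidase gene whose enzyme crosslinks extracellular matrix, fell by 2.18, and the transcription factor gene Sox102F by 1.75. Among genes of general cell function Arpc1, a subunit of the Arp2/3 complex that branches actin, read 10.57 and 10.77 in GFP RNAi discs, 11.73 and 11.92 in LID RNAi discs and 12.03 and 11.91 in wild type discs. Rtf1, of the Paf1 complex in transcription elongation, fell by 1.14, and the nucleolar gene Aatf by 1.01. The long noncoding RNA gene lncRNA:CR32368 read 5.21 and 5.73 in GFP RNAi discs, against 8.70 and 8.17 in wild type discs, while asRNA:CR42871 rose by 1.29. They were the 2 of 98 measured noncoding RNA genes to pass, or 2.04%, beside 1.05% of all genes. The scavenger receptor gene pes, of the CD36 family, fell by 0.76.

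Detoxification genes had calls in both directions. Cytochromes P450 oxidise toxins and hormones, and of 80 measured 3 rose and 1 fell, or 5%, beside 1.05% of all genes. Cyp9c1 read 10.86 and 11.08 in GFP RNAi discs, against 8.95 and 8.57 in wild type discs, a rise of 2.21 ± 0.17 (adjusted p = 0.0216), Cyp6t1 rose by 1.74 and Cyp6d2 by 1.67. Cyp6a20, known from work on male aggression, read 4.94 and 4.97 in GFP RNAi discs, against 7.09 and 6.98 in wild type discs. The median over the 80 was -0.05 and 35 lay above 0, where the median over all genes was -0.02 and 44.6% lay above 0. Glutathione transferases, which couple toxins to glutathione, had 2 of 35 higher and none lower, or 5.71%. GstE1 read 12.03 and 12.32 in GFP RNAi discs, against 10.91 and 10.93 in wild type discs, and GstE5 read 7.87 and 7.83 in GFP RNAi discs, against 6.82 and 6.59 in wild type discs (adjusted p = 0.0359 and 0.0405). GstE6 and GstD9 differed by 1.75 and 0.84 without passing (adjusted p = 0.0527 and 0.059). The median over the 35 was 0.11, and 26 lay above 0. None of 35 UDP-glycosyltransferases or 14 carboxylesterases passed. Of 22 antioxidant enzymes and their regulators 1 fell, the peroxiredoxin gene Prx6c, at 3.25 and 3.33 in GFP RNAi discs, 3.12 and 3.12 in LID RNAi discs and 6.56 and 6.10 in wild type discs, at least 2.85-fold lower. For the other members the largest difference was 0.59, for Gclc, which makes the first intermediate of glutathione (adjusted p = 0.138).

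Cuticle genes encode the chitin-binding proteins of the exoskeleton. Of 115 measured 1 rose and 3 fell, or 3.48%, beside 1.05% of all genes, with a median of 0.02. Cpr47Eb rose to 7.60 and 7.91 in GFP RNAi, against 6.31 and 6.46 in wild type. Cpr47Ee fell to 5.19 and 4.33 in GFP RNAi, against 7.51 and 7.89 in wild type, and Cpr67Fb fell by 1.24. Cpr76Bc passed with both groups within background. Of 37 pigmentation genes t alone passed, and the median was -0.01. The yellow gene y, needed for black pigment, stood within background at 3.28 and 3.27 in GFP RNAi discs, against 4.06 and 4.04 in wild type discs (adjusted p = 0.0847).

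Receptor and odorant families had single members apart from the rest. Of 15 methuselah family genes mthl8 fell and mthl6 rose, or 13.3%, beside 1.05% of all genes, in a list chosen with earlier results known. The levels of mthl6 were 6.42 and 6.39 in GFP RNAi discs, against 4.72 and 4.58, within background, in wild type discs. The other 13 differed by at most 0.93, for mthl2, and did not pass. Of 194 gustatory, odorant and ionotropic receptors and ppk channels Ir76a was the 1 call, or 0.515%, and 42 of the 194 stood above background in either group. Of 64 odorant-binding and chemosensory genes Obp99a fell, with 8.88 and 8.91 in GFP RNAi discs, against 11.44 and 11.25 in wild type discs (-2.45 ± 0.09, adjusted p = 0.0035). Obp56a differed by -3.94 but with GFP RNAi arrays at 7.48 and 9.03, against 12.38 and 12.01 in wild type (adjusted p = 0.0681). Of 17 juvenile hormone binding and related genes Jhbp12 fell by 0.76.

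Immune genes had 1 call each way among 47, or 4.26%, beside 1.05% of all genes. PGRP-LF, an inhibitor of the Imd pathway, read 6.66 and 6.53 in GFP RNAi discs, against 5.61 and 5.46 in wild type discs. The gene grass, a serine protease upstream of Toll, read 8.32 and 8.25 in GFP RNAi discs, 7.26 and 7.14 in LID RNAi discs and 9.24 and 9.30 in wild type discs. The drosomycin-like gene Drsl5 read 9.31 and 3.25 in GFP RNAi discs, against 7.84 and 7.72 in wild type discs, so that its replicates differed by more than the groups did (adjusted p = 0.876). Besides the antioxidant and apoptosis genes given above, 3 further stress lists had no call, with the largest differences at -0.39 for l(2)efl among 15 heat shock and chaperone genes, 0.90 for chinmo among 19 wound and JNK genes and -0.18 for Ire1 among 12 genes of endoplasmic reticulum stress.

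The machinery that acts on the hairpin had no call, beside 1.05% of all genes, a share at which so short a list would hold few calls or none. Among 21 measured siRNA and miRNA genes the median was -0.02. Dcr-2, which cuts the hairpin, read 11.38 and 11.34 in GFP RNAi discs, against 11.37 and 11.33 in wild type discs, and its difference was 0.01 ± 0.10 (SE). Its partner genes r2d2 and loqs differed by -0.04 and 0.00, with SEs of 0.07 each. The largest difference was 0.48 for blanks, from arrays at 4.30 and 5.76 in GFP RNAi discs, against 4.06 and 5.05 in wild type discs, whose direction turned when GFP RNAi replicate 2 or wild type replicate 1 was left out (-0.25 and -0.021). Of 36 genes of the piRNA pathway, which silences transposons mainly in the germline, tej alone passed, or 2.78%, beside 1.05% of all genes. It fell, at 5.93 and 5.60 in GFP RNAi discs, against 7.23 and 7.35 in wild type discs (limma adjusted p = 0.0487). The piRNA gene krimp differed by 2.07, but wild type arrays stood at 6.56 and 5.58 (adjusted p = 0.291), and the median of the list was 0.04.

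Genes that build and grow the disc showed no call, beside 1.05% of all genes. At that share each of the lists below would hold few calls or none, so the absence does not set these genes apart. No member passed among 41 wing disc selector and patterning genes (median -0.01, with the largest difference 0.58 for mirr), 24 of Dpp signalling (-1.39 for daw), 15 of Hedgehog signalling (0.14 for rasp), 15 of Notch signalling (0.38 for pen-2), 8 of Wnt signalling (-0.24 for Wnt6), 19 of the EGFR pathway (-1.01 for kek2) and 18 of the Hippo and Fat pathway (0.20 for fj). The same held for 26 cell cycle genes (0.17 for sub, which turned to -0.048 without GFP RNAi replicate 1), 18 of insulin and TOR signalling (0.66 for REPTOR), 20 of Myc and nucleolar growth (-0.36 for mod), 14 Polycomb group genes (0.40 for escl) and 20 genes of H3K4 methylation (0.21 for Pa1). Among large complexes, no member passed of 73 mitochondrial ribosomal protein genes (11 above 0, median -0.08), 41 proteasome genes (9 above 0, median -0.08) or 34 cytosolic ribosomal protein genes (27 above 0, median 0.01), where 44.6% of all genes lay above 0. The 3′ to 5′ gap of control transcripts differed between the same arrays, and its part in these medians was not tested.

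Markers of tissues attached to the disc were measured as well. In bulk samples, fewer cells of a type and less RNA per cell cannot be told apart. Of 31 haemocyte markers 1 fell, or 3.23%, beside 1.05% of all genes. This was PPO3, a prophenoloxidase of lamellocytes, at 6.46 and 6.47 in GFP RNAi discs, against 7.38 and 7.28 in wild type discs. PPO1, a prophenoloxidase of crystal cells, differed the other way without passing, at 10.71 and 10.74 in GFP RNAi discs, against 9.59 and 8.34 in wild type discs (adjusted p = 0.225). None passed among 13 markers of adult muscle precursors, 18 of larval muscle, 15 of trachea, 15 of fat body, 21 of gut, 22 of salivary gland, 24 of nerve and glia, 32 of germline and testis and 16 of other discs. Their medians lay between -0.16 for gut and 0.03 for larval muscle. The summed level of gut markers, on the log2 scale, was 10.19 and 11.26 in GFP RNAi discs, against 12.72 and 10.77 in wild type discs, where wild type replicate 1 was highest.

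**Figure D3:**
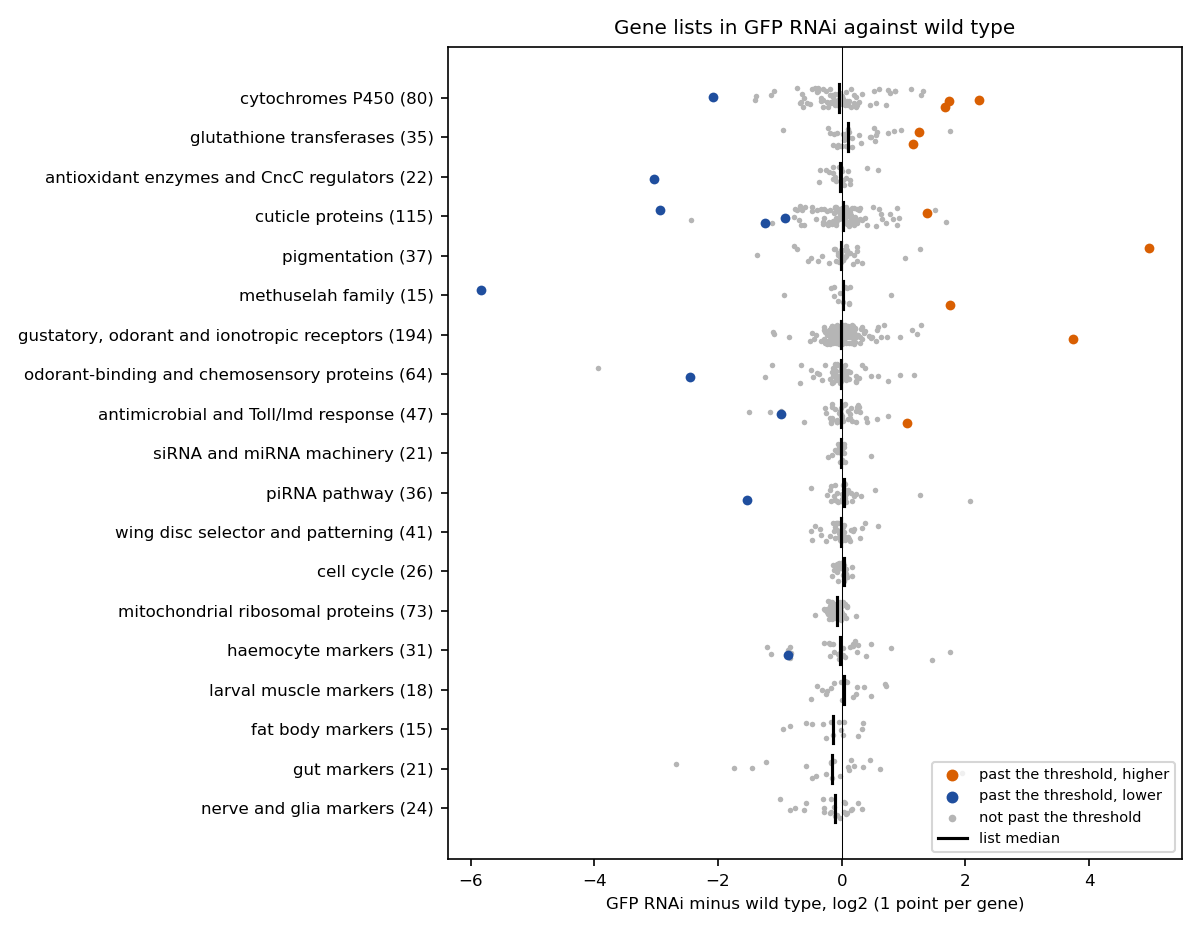
Difference between GFP RNAi and wild type (log2) for each gene of 19 lists, with the number of measured genes in brackets and the list median as a black bar. Single genes passed (orange higher, blue lower), such as t at 4.96 and mthl8 at -5.82, while the medians shown lie between -0.16 and 0.11.

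Genes next to each other on the chromosome passed together in a few places. The gene order was taken from the Release 6 plus ISO1 MT assembly table. Called genes had 251 places beside them filled by a measured gene, and 8 of these held a called gene, or 3.19%, beside 1.06% of all placed genes. They form 4 adjacent pairs, all of 2 genes that rose. CG11699, Kmn1 and Reepl1 lie side by side and rose by 0.75, 1.21 and 3.97. Kmn1, a gene of the outer kinetochore, read 12.72 and 12.77 in GFP RNAi discs, 12.71 and 12.66 in LID RNAi discs and 11.54 and 11.53 in wild type discs. Their flanking genes CG1572 and CG11696 differed by 0.28 ± 0.18 and 0.04 ± 0.10 without passing. The gene t lies beside CG15370, which read 7.45 and 7.42 in GFP RNAi discs, 9.10 and 8.50 in LID RNAi discs and 5.48 and 5.58 in wild type discs. PGRP-LF lies beside UGP, the gene for the enzyme that makes UDP-glucose, which rose by 1.27, and the next gene along, CG32040, differed by 1.22 (adjusted p = 0.140).

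2 clusters of related genes held several calls. In the GstE cluster GstE1 and GstE5 rose by 1.26 and 1.15. The other members did not pass, with differences of 1.75 for GstE6 (adjusted p = 0.0527), 0.75 for GstE2, 0.56 for GstE7, 0.31 for GstE9, 0.07 for GstE4, 0.04 for GstE3 and -0.22 for GstE10. Differences between members were not tested. In the Cpr47E cluster Cpr47Eb rose and Cpr47Ee fell. The other members did not pass, with differences of 0.93 ± 0.46 for Cpr47Ec, 0.24 ± 0.23 for Cpr47Ed and 0.10 ± 0.24 for Cpr47Ea, which flanks Cpr47Eb. Those of Cpr47Eg and Cpr47Ef were 0.06 ± 0.57 and -0.12 ± 0.09. These clusters were chosen for display after their values were seen.

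**Figure D4:**
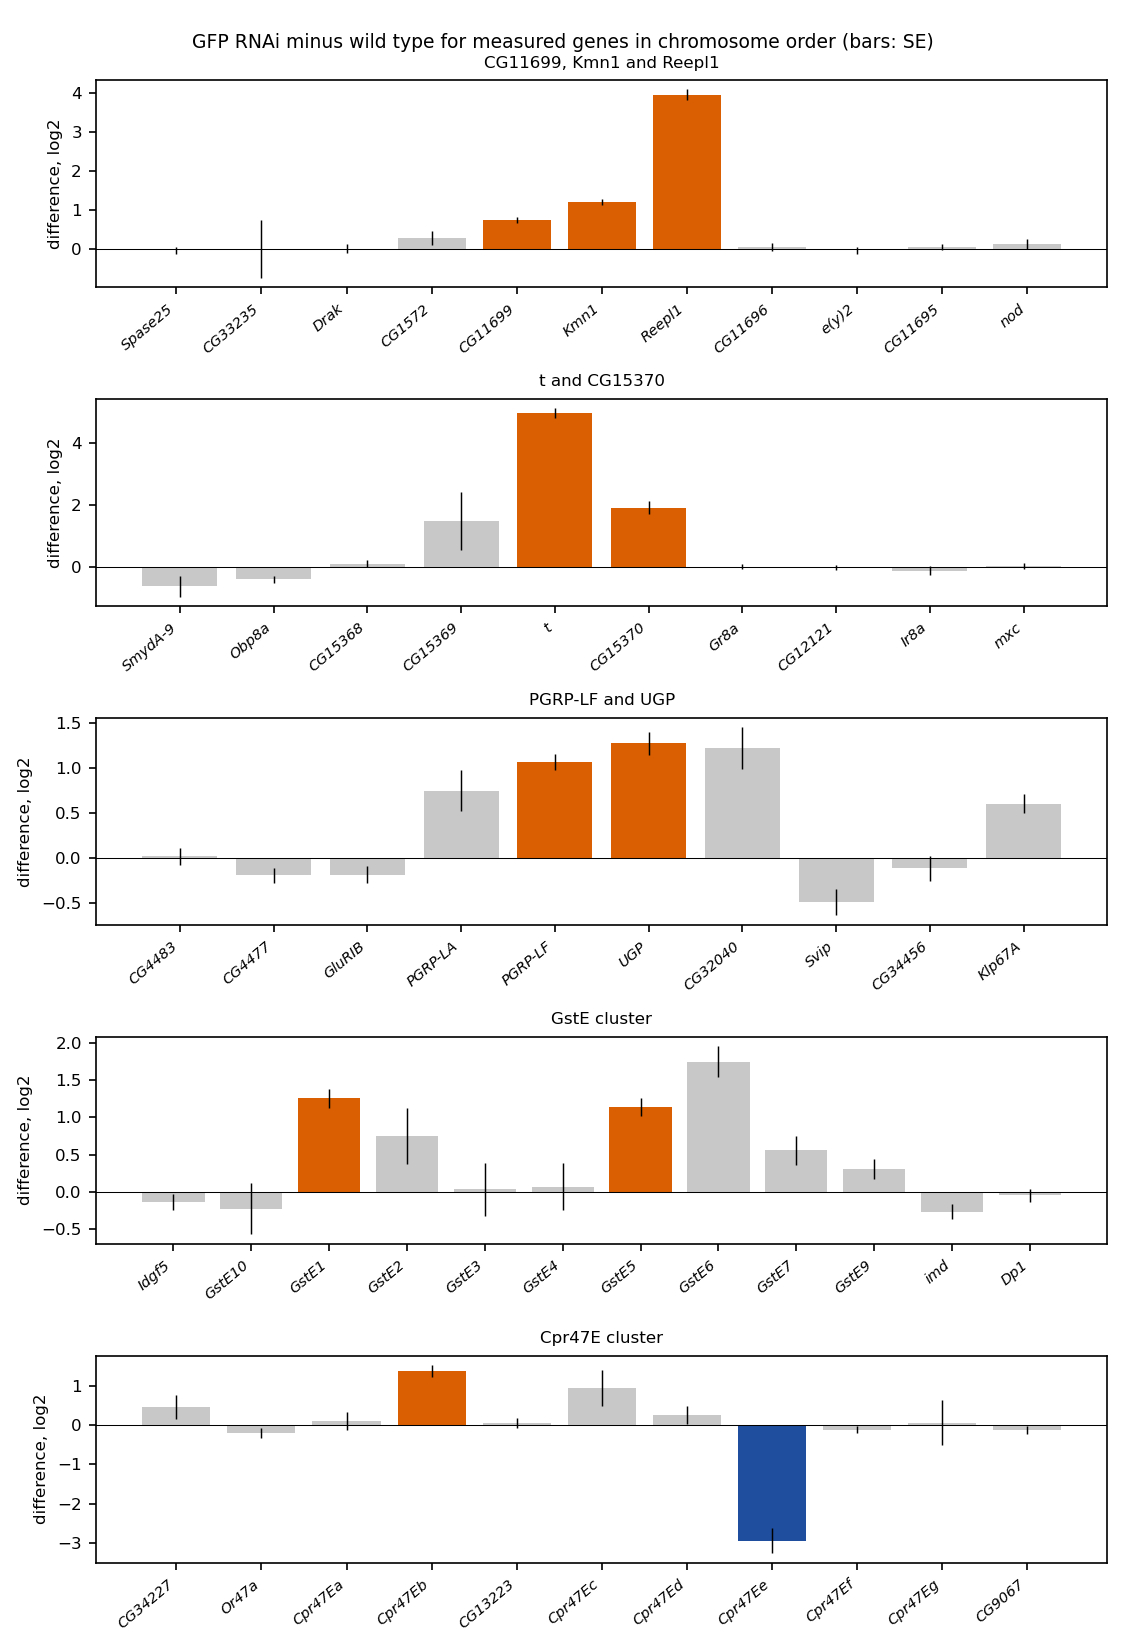
Difference between GFP RNAi and wild type (log2, error bars are SE) for measured genes in chromosome order around 5 sites. Orange and blue bars passed the test, and beside Reepl1 at 3.97 the flanking CG11696 lies at 0.04.

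For 14 of the genes called, the array carries several probe sets, and for 13 of them only some passed. The probe sets of a gene had the same sign in 6 cases and not in 8. In trol, which encodes the basement membrane proteoglycan perlecan, 1 of 8 probe sets rose, at 6.52 and 6.83 in GFP RNAi discs, 6.56 and 6.33 in LID RNAi discs and 4.04 and 4.21 in wild type discs, while the one with the highest level differed by 0.08 ± 0.08. In Dhc64C, the heavy chain of cytoplasmic dynein, 1 of 3 probe sets rose, by 1.53, and the one with the highest level differed by 0.15 ± 0.07 (adjusted p = 0.548). In CanA-14F, a catalytic subunit of calcineurin, 1 of 2 rose by 2.59 and the other differed by 0.11 ± 0.35. In sick 1 of 7 rose and in rdgA, a diacylglycerol kinase gene of phototransduction, 1 of 4 fell by 0.98.

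In Arc1 and r-cup all probe sets differed in the same direction, though only some passed. Arc1, a gene for a capsid-forming protein that carries mRNA between cells, had both probe sets higher in GFP RNAi. They read 10.40 and 10.95 in GFP RNAi discs, against 7.61 and 7.05 in wild type discs for the one that passed, and 13.42 and 13.61 in GFP RNAi discs, against 12.02 and 11.69 in wild type discs for the other (adjusted p = 0.0346 and 0.135). In r-cup, known from late spermatogenesis, 2 of 3 probe sets fell, by 2.22 and 1.25, and the remaining one differed by -0.53 from values within background. For the fall of 1.25 the GFP RNAi arrays were within background, at 4.13 and 4.15, which is at least 1.49-fold lower than wild type.

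**Figure D5:**
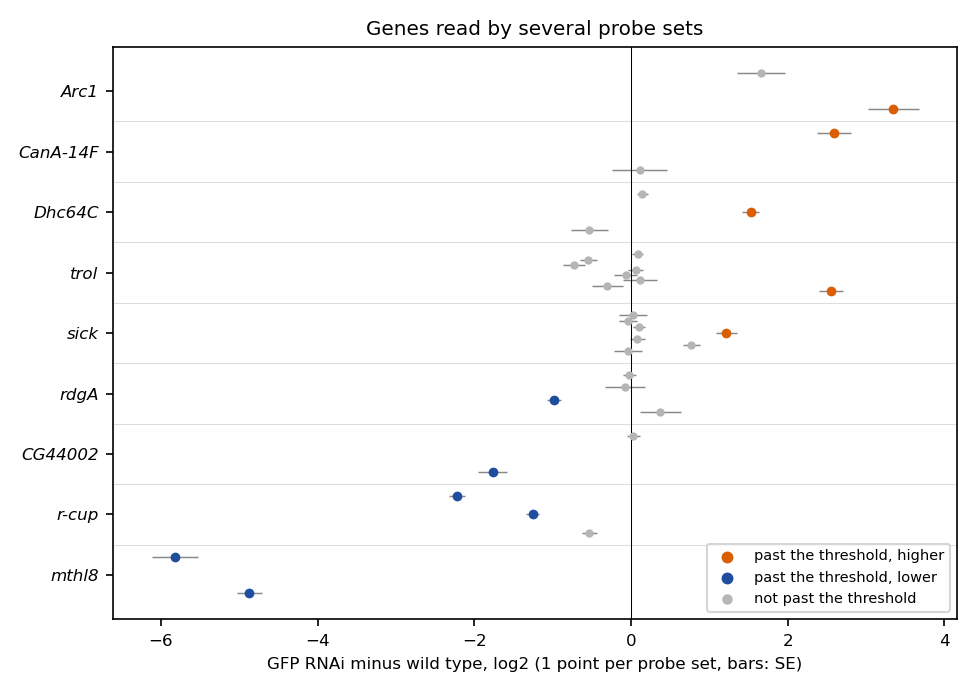
Difference between GFP RNAi and wild type (log2, error bars are SE) for every probe set of 9 genes with several. In trol and Dhc64C a single probe set rose while the others lie near or below 0, whereas both probe sets of mthl8 fell.

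Of the 162 probe sets, 28 had no gene name in the annotation used and 6 had several. The largest rise of any probe set was among the unnamed, 1624393_at, with 11.02 and 11.05 in GFP RNAi discs, 11.69 and 11.42 in LID RNAi discs and 5.39 and 4.85 in wild type discs (5.92 ± 0.21, adjusted p = 0.0035). Another, 1624543_s_at, rose by 4.75. The largest fall without a name was that of 1627510_at, at 5.77 and 5.95 in GFP RNAi discs, against 9.23 and 9.13 in wild type discs, and 1630511_at fell by 2.63.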

How the data were processed

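Each sample was hybridised to 1 array after amplification and biotin labelling of 25 ng of RNA, per the labels' protocols. The deposited table holds log2 values. RMA is the tool that the submitters' processing notes list for them, and its version is not given in the sources used here. It was used without further scaling. From 18952 probe sets, 183 controls were left out and 18769 tested. The array annotation gave 13647 of them 1 symbol, 402 several and 4720 none, and symbols were updated through the Release 6 plus ISO1 MT gene table (13550 found). The probe set with the highest mean stands for a gene.

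With limma 3.58.1 in R 4.3.3, group means were fitted over all arrays (3 residual degrees of freedom, prior 1.77), and GFP RNAi minus wild type was tested two-sided, with Benjamini-Hochberg adjustment over the 18769 and a threshold of 0.05. Every probe set past it with 1 symbol could be named, and from a list without a call the member with the largest difference. Background is the 95% point, 4.82, of 27 Bacillus subtilis control probe sets, and "at least" folds set lower values to it. On simulated data for this comparison (18769 probe sets) the fit recovered 3.12% of 1.5-fold, 46.9% of 2-fold and 86.1% of 4-fold changes, with 1 false call. The simulated noise was independent and normal, with spreads drawn from the prior of the fit and held under an upper limit. These figures therefore apply to data that meet the model of the fit. The members, the background limit and the 62 lists were chosen with earlier results of these data known. The share of a list that passed is therefore a description and no test of that list. Alternatives changed the arrays fitted, scaling, filter, variance prior, fold limit, probe sets per gene and pairing. Depth does not apply to arrays, whose number limits the precision.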

Additional observations from a re-analysis of the deposited data

Results flagged for a closer look

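A control probe set of the manufacturer, outside the probe sets tested, separated the groups. AFFX-Dm-K01486-1_at read 11.91 and 11.85 in GFP RNAi discs, 11.87 and 11.32 in LID RNAi discs and 3.07 and 2.96, within background, in wild type discs. The tables used here do not name its transcript. It was singled out because it carries a strong signal in data that the comparison does not use, above the level in the wild type discs.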

How the results depend on the processing

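The 162 calls (82 higher and 80 lower) became 90 (47 and 43) when the GFP RNAi and wild type arrays alone were fitted, 325 (169 and 156) with a variance prior that follows the level, and 41 (22 and 19) with the replicate number as a block. Leaving out 1 array gave 4 to 90 calls, 4 to 47 of them higher and 0 to 43 lower, where a lone array takes its spread from the remaining groups. The other alternatives gave 132 to 212. No called probe set changed direction in any of the 15 alternatives, but this could hardly have come out otherwise. As none of them overlapped between the groups, leaving out 1 array could not turn a direction. Several other alternatives left the difference itself unchanged. Leaving out either LID RNAi array gave the same fit as the GFP RNAi and wild type arrays alone, so the 15 are not separate checks. Same-numbered arrays deviated together at r = 0.06 between GFP RNAi and wild type and at 0.30 and 0.22 for the other pairs, so the numbers were not taken to pair samples. Differences that had not passed changed direction without 1 array for Hr3 (-3.86 to 0.14), blanks (-0.25 to 1.21), sub (-0.048 to 0.38), toy (-1.34 to 0.17) and Kdm5 (-0.054 to 0.081). The cause was not tested. Signals within background limit what can be said of the called probe sets, 16 with GFP RNAi alone there, 8 with wild type alone and 3 with both.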
